A study of Homo sapiens with 12 samples.

Results

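The genes described here carry iron into, through and out of the absorptive cell of the gut. They are TFRC, SLC11A2 and CYBRD1 for uptake, HFE for the control of uptake, FTL and FTH1 for storage, SLC40A1 and HEPH for export, and ACO1 and IREB2 for the RNA-level control of the others. Their probe sets were taken wherever the platform annotation gave exactly 1 gene symbol and that symbol was one of these 10. The rule found 35 of the 54613 probe sets that are not array controls, and they read 8 of the 10 genes. HFE had 15 of them, TFRC and SLC11A2 had 5 each, and CYBRD1, FTL, SLC40A1, HEPH and ACO1 had 2 each. FTH1, the ferritin heavy chain, and IREB2, the second iron regulatory protein, had no probe set under this rule and were not analysed here.

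Gene expression was measured in Caco-2, an established colon carcinoma line whose confluent cells come to resemble enterocytes, on 12 arrays of 4 groups with 3 arrays each. All groups were differentiated cells at passage 22, grown with 10% fetal calf serum and used 21 days after reaching confluence. They were then kept for 24 h in 20 mL of DMEM that held 1% ITS (insulin, transferrin and selenium) and 1% penicillin and streptomycin, and the labels name no serum for these 24 h. The medium group received nothing else. The particle groups received surfactant coated silver nanoparticles (AgPURE), 2.5 or 25 µg/mL, and the ion group received silver ions as AgNO3 at 0.5 µg/mL. No group received the surfactant alone, so silver and coating cannot be told apart in the particle groups, and the particle and ion doses differ. Nothing in the labels ties the arrays of one group to separate cultures. The p-values then measure only how far these arrays spread, which may be technical, and the number of arrays limits the precision.

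Dietary iron is reduced at the luminal face of the enterocyte, taken up by a divalent metal transporter, held in ferritin and released to the blood side through ferroportin, where a ferroxidase oxidises it. Transferrin-bound iron enters from the blood side through the transferrin receptor. Iron regulatory proteins bind stem-loops called iron-responsive elements in several of these mRNAs, and block translation when the loop lies near the start of the message or protect the message when loops lie near its end. Metal response elements are another short motif, bound by the metal-regulated transcription factor MTF1, and ferroportin is also under the control of the liver hormone hepcidin.

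The arrays resembled each other closely, with Pearson's r across probe sets of 0.992 to 0.996 within groups and 0.978 to 0.996 between groups. Of 13 enterocyte markers, VIL1, CDH1, CDX2, ALPI, DPP4, EPCAM and CDHR5 lay above the median probe set in medium. SI, FABP2, ANPEP, SLC5A1, KRT20 and LCT did not, so several markers of the mature brush border were at low values. All 6 hepatocyte-type markers lay above the median, as did 4 of 6 fibroblast markers, 4 of 6 macrophage and leukocyte markers and 2 of 4 erythroid markers. The pan-leukocyte marker PTPRC, at 3.99, and MARCO were the leukocyte markers below it. On the 25 µg/mL arrays control probe sets also stood above medium, the 24 poly-A ones by 0.61 and the 18 hybridization ones by 0.43 in mean log2 value.

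At 25 µg/mL particles, 5 of the 8 iron genes were lower than in medium and none was higher, although FTL passed as higher under 2 of the 25 other settings. The ferroportin gene SLC40A1 fell 1.96-fold, the divalent metal transporter gene SLC11A2 1.65-fold, HFE 1.58-fold, the ferrireductase gene CYBRD1 1.51-fold and ACO1 1.40-fold. TFRC, FTL and HEPH did not pass the test. Counted by probe set, 17 of 35 were lower and 0 higher (limma, two-sided, Benjamini-Hochberg adjusted p under 0.05 over all 54613 probe sets). The treatment moved much of the array, with 25.9% of all probe sets called, 13.4% lower and 12.5% higher. Of the iron probe sets 48.6% were called, all of them lower. HFE gave 8 of these 17 and SLC11A2 4, and probe sets of 1 gene are not separate replicates. The genes were chosen with earlier results of these data known, so the gap between these shares is a description and no test of the set. The 25.9% includes dim probe sets, which were called less often. Among the 27306 probe sets whose mean over the 12 arrays was above the median, tested alone, 13182 were called, 7286 lower and 5896 higher. All 17 called iron probe sets were among these and stayed called. The 48.6% also counts iron probe sets below that median, so it is not matched in brightness with the 13182 of 27306. All 3 arrays at 25 µg/mL lay below all 3 medium arrays in 22 of 35 iron probe sets (19.9% of all probe sets) and above them in 2 (19.1%). By gene, 17.9% of 19775 genes were lower and 12.8% higher. Each gene was read by its leading probe set, the one brightest on average across the 12 arrays. The median log2 difference was -0.54 over the 8 iron genes and -0.011 over all genes. These are bulk samples, in which fewer cells of a type and less RNA per cell cannot be told apart.

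**Figure D1:**
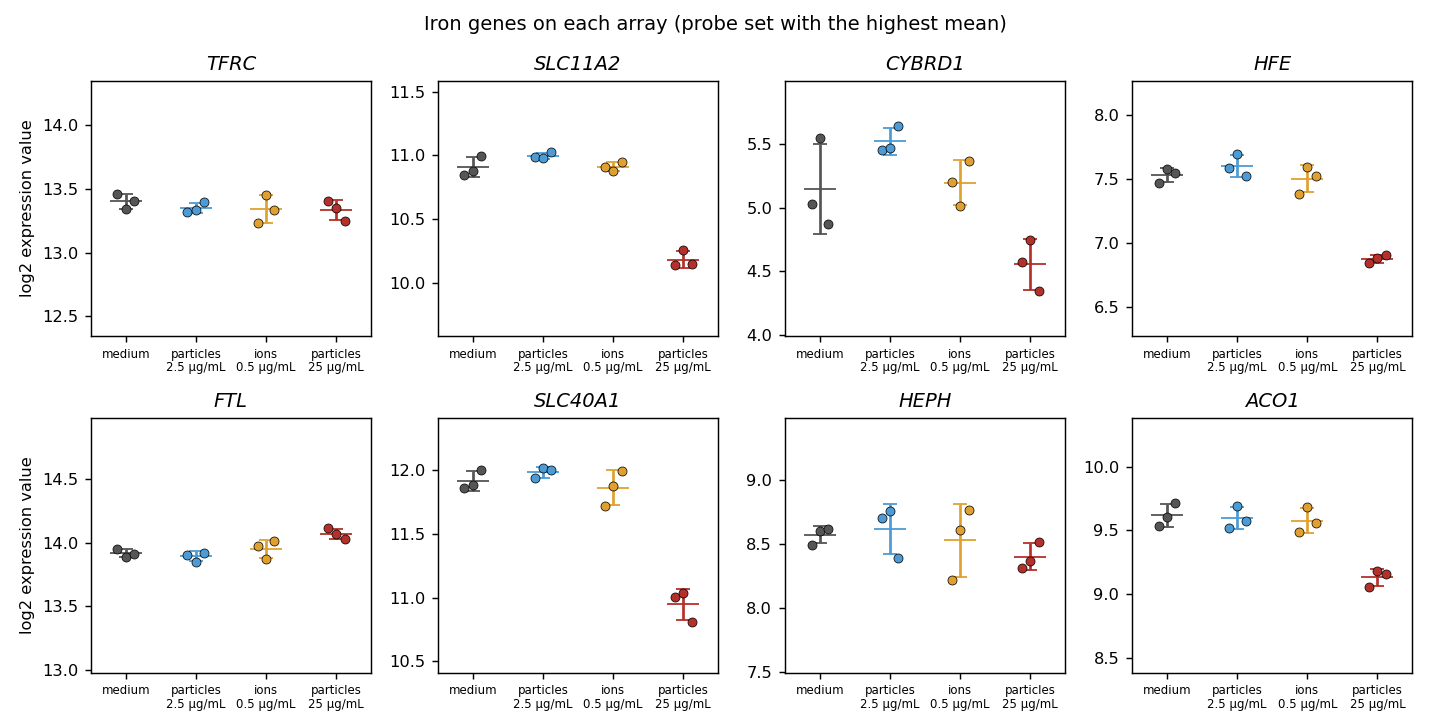
Log2 expression value on each array (points) for the probe set with the highest mean of each iron gene, with group mean (line) and SD (bar, n = 3), each panel spanning the same number of log2 units. In SLC11A2, CYBRD1, HFE, SLC40A1 and ACO1 the 3 arrays at 25 µg/mL lie below all others, whereas TFRC and HEPH overlap and FTL lies slightly higher at 25 µg/mL.

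Among the uptake genes, SLC11A2 encodes DMT1, the transporter that brings ferrous iron across the luminal membrane and out of endosomes. Its leading probe set, 203124_s_at, read 10.85, 10.88 and 10.99 in medium, 10.99, 10.98 and 11.03 at 2.5 µg/mL, 10.91, 10.88 and 10.95 with ions, and 10.14, 10.26 and 10.15 at 25 µg/mL, all on the log2 scale. The arrays at 25 µg/mL thus lay together below the other 9, with no overlap. The log2 difference from medium was -0.72 ± 0.08 (SE; 95% interval -0.90 to -0.54; n = 3 per group; limma adjusted p = 1.2e-05). The other 4 SLC11A2 probe sets were on the same side of 0, and 3 of them passed the test, at -0.59, -0.64 and -0.69. The remaining one, 237106_at, differed by -0.35 (limma adjusted p = 0.079), with all 3 arrays below medium. SLC11A2 mRNAs differ in whether they carry an iron-responsive element, and which form each probe set reads is not given in the sources used here.

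CYBRD1 encodes duodenal cytochrome b, a ferric reductase of the brush border. In medium its leading probe set, 222453_at, gave log2 values of 5.03, 5.54 and 4.87, a wider spread than in the other leading probe sets. The values were 5.45, 5.47 and 5.64 at 2.5 µg/mL, 5.20, 5.02 and 5.37 with ions and 4.57, 4.75 and 4.35 at 25 µg/mL. The arrays at 25 µg/mL were the lowest, although the highest of them was only slightly under the lowest medium array. The difference from medium was -0.59 ± 0.15 (SE; limma adjusted p = 0.0095), and it no longer passed without medium replicate 2 (-0.39, limma adjusted p = 0.052) or without 25 µg/mL replicate 3 (-0.49, limma adjusted p = 0.054). The second probe set, 217889_s_at, overlapped between the groups and differed by -0.17 (limma adjusted p = 0.60), and the mean of both differed by -0.38 (limma adjusted p = 0.093). The CYBRD1 call therefore rests on 1 of 2 probe sets. Both lay near the median of all probe sets in medium, at percentiles 57.7 and 44.7, and there are no detection calls.

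TFRC encodes transferrin receptor 1, whose mRNA is known for the iron-responsive elements at its end that protect it in iron-poor cells. The leading probe set, 208691_at, gave log2 values of 13.46, 13.34 and 13.41 in medium, 13.32, 13.33 and 13.40 at 2.5 µg/mL, 13.24, 13.45 and 13.34 with ions and 13.41, 13.35 and 13.25 at 25 µg/mL. All 4 groups overlapped. The difference at 25 µg/mL was -0.07 ± 0.09 (SE; 95% interval -0.26 to 0.12; limma adjusted p = 0.66), which leaves room for a decrease of up to 0.26 on the log2 scale. The other strong probe set, 207332_s_at, read 12.976, 12.993 and 12.9997 in medium and 12.81, 12.78 and 12.69 at 25 µg/mL, so these groups did not overlap. Its difference of -0.23 was just past the threshold (limma adjusted p = 0.047), and it missed the threshold in 11 of the 12 fits that left out 1 array each (limma adjusted p from 0.045 to 0.16). It passed by more when the variance was allowed to follow intensity (limma adjusted p = 0.00013) and without moderation (limma adjusted p = 0.00089). Both probe sets sit near the top of the scale, whose highest value on any array was 14.73, and whether bright probes compress such differences was not tested.

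A dimmer TFRC probe set, 237215_s_at, had another pattern. It gave log2 values of 6.40, 6.48 and 6.11 in medium, 5.38, 5.73 and 5.47 with ions, 6.35, 5.97 and 5.76 at the lower particle dose, and 6.06, 6.31 and 6.45 at the higher one. The ion arrays were thus the lowest, with no overlap with any other group. The difference of ions from medium was -0.80, with an unadjusted p of 9.4e-05 in limma and an adjusted p of 0.50, so it did not pass. Relative to ions the 25 µg/mL arrays were higher by 0.75 (limma adjusted p = 0.0018). The 2 bright TFRC probe sets differed by -0.06 and -0.09 between ions and medium, so the probe sets of this gene disagree.

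HFE encodes a relative of the MHC class I proteins that binds transferrin receptor 1 and needs β2-microglobulin to reach the cell surface. Its leading probe set, 206087_x_at, gave log2 values of 7.47, 7.58 and 7.55 in medium, 7.59, 7.70 and 7.53 at 2.5 µg/mL, 7.39, 7.60 and 7.53 with ions and 6.84, 6.88 and 6.91 at 25 µg/mL. The 3 arrays at 25 µg/mL were again below the other 9. The difference from medium was -0.66 ± 0.09 (SE; 95% interval -0.85 to -0.46; limma adjusted p = 5.4e-05). Of its 15 probe sets 14 were below 0 and 8 passed the test, and they ranged from -0.96 for 211330_s_at (limma adjusted p = 8.6e-06) to 0.01 for 211331_x_at (limma adjusted p = 0.98). The calls of 211332_x_at and 210864_x_at were lost in 4 of the 12 fits without 1 array, and those of the other 6 in none. Both were also lost with quantile normalization (limma adjusted p = 0.072 and 0.052). Most HFE probe sets carry the suffix that marks probes shared with other sequences, and they share a target, so they are not separate replicates. B2M, the gene of β2-microglobulin, read 12.62, 12.73 and 12.69 in medium and 11.89, 12.05 and 12.11 at 25 µg/mL, and fell by 0.66 on the log2 scale (limma adjusted p = 5.2e-05).

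**Figure D2:**
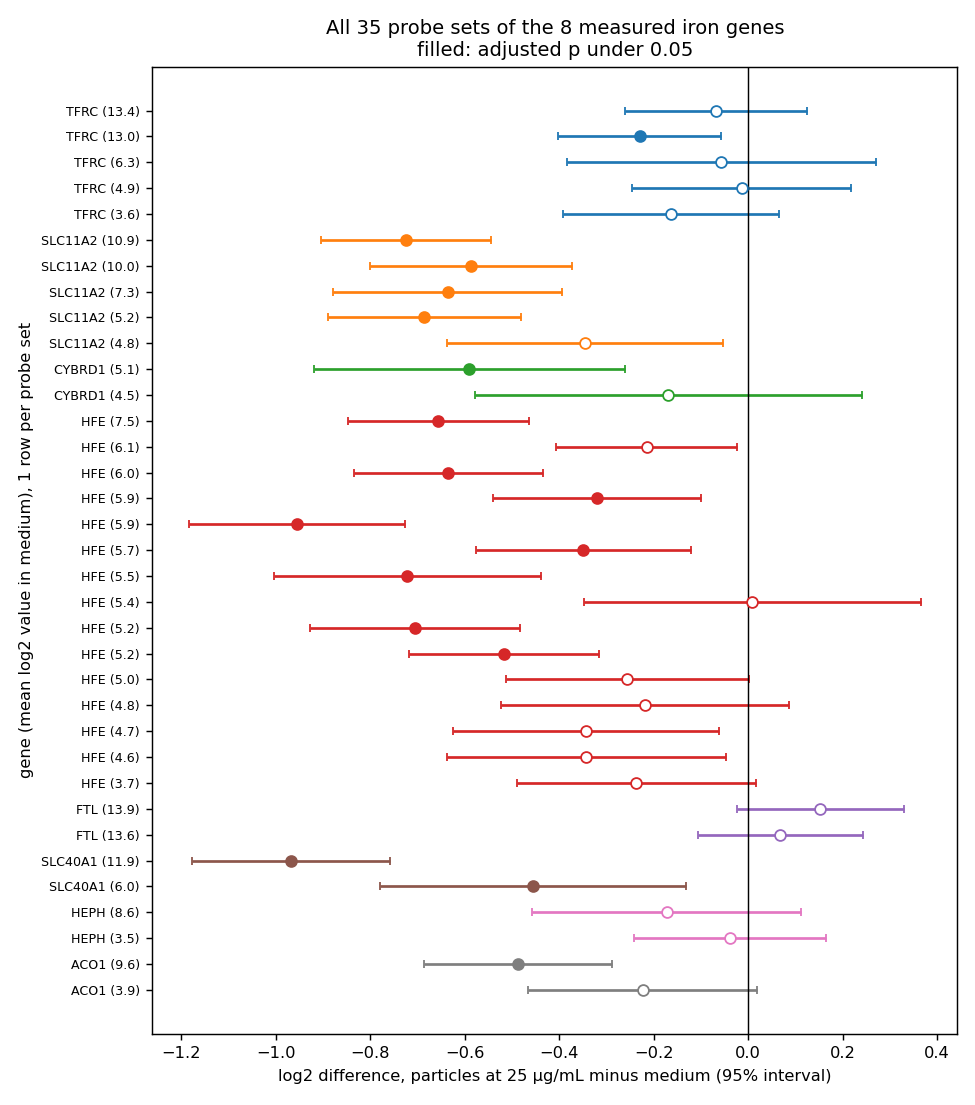
Log2 difference between 25 µg/mL particles and medium for each of the 35 iron probe sets (point, with 95% interval), filled where the adjusted p was under 0.05, with the mean log2 value in medium in brackets. All 17 filled points lie left of 0, 8 of them in HFE, 4 in SLC11A2 and 2 in SLC40A1.

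For storage, only the ferritin light chain could be read. FTL mRNA is known for the iron-responsive element near its start, and the RefSeq start site window of FTL (GRCh38.p14, 250 bases before to 50 after the start) holds its stem-loop, shown because it is the element through which this message answers to iron. The capitals mark the CAGTGN hexaloop, searched on the sense strand with a paired stem before and after it, at chr19:48965329-48965358 on the + strand.
FTL: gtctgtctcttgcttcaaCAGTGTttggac
The stem-loop was found in 8 of 35116 windows (0.0228%), and FTL was the only one among the 9 of the 10 genes with a window, which FTH1 lacked. ALAS2, another mRNA known for such an element, was also found, whereas EPAS1, counted below among such mRNAs, was not. The search read only the 50 bases after each start. A missing match, in SLC40A1 or any other iron gene, therefore does not show that the mRNA lacks the element. On the arrays, FTL probe set 212788_x_at gave log2 values of 13.95, 13.89 and 13.91 in medium, 13.91, 13.85 and 13.92 at 2.5 µg/mL, 13.98, 13.87 and 14.01 with ions and 14.11, 14.07 and 14.03 at 25 µg/mL. All 3 arrays at 25 µg/mL were above the other 9, by a small margin. The difference from medium was 0.15 ± 0.08 (SE; 95% interval -0.02 to 0.33; limma adjusted p = 0.22) and did not pass. The same difference passed when the variance was allowed to follow intensity (limma adjusted p = 0.0039) and without moderation of the variance (limma adjusted p = 0.026). The second probe set, 213187_x_at, was also above medium on all 3 arrays and differed by 0.07 (limma adjusted p = 0.63). Both FTL probe sets carry the suffix that marks probes shared with other sequences, and they share a target, so they are not separate replicates. These values are mRNA levels, so the translation that the stem-loop controls was not measured.

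For export, SLC40A1 had the largest difference among the 8 leading probe sets. It encodes ferroportin, the known iron exporter of animal cells. Probe set 223044_at gave log2 values of 11.858, 11.887 and 12.002 in medium, 11.936, 12.015 and 11.998 at 2.5 µg/mL, 11.717, 11.880 and 11.993 with ions, and 11.001, 11.033 and 10.808 at 25 µg/mL. The arrays at 25 µg/mL were separated from all others by a gap wider than the range within any group. The difference from medium was -0.97 ± 0.10 (SE; 95% interval -1.18 to -0.76; limma adjusted p = 3.3e-06), and it ranged from -1.01 to -0.90 when 1 array was left out. The weaker probe set 233123_at fell by 0.46 (limma adjusted p = 0.037), but 25 µg/mL replicate 1, at 5.86, lay inside the medium range of 5.76 to 6.29. Its call was lost in 4 of the 12 fits without 1 array: without medium replicate 2 (limma adjusted p = 0.076) or 3 (limma adjusted p = 0.18), or without 25 µg/mL replicate 2 or 3 (limma adjusted p = 0.13 and 0.14).

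SLC40A1 is known as a metal-responsive gene, so its start site window was searched for the metal response element core, as TGCACNC or TGCGCNC, on both strands. The window held TGCGCNC on each strand, shown with the core in capitals, 5′ to 3′ on the gene's strand, which is the minus strand of chromosome 2. They lie at chr2:189580954-189580983, with the core's first base 186 bases before the start, and at chr2:189580905-189580934, 137 bases before it. CYBRD1, the other called gene with a match, held the core in reverse at chr2:171522117-171522146 on the + strand, 105 bases before its start. This match was in only 1 of the 2 CYBRD1 windows.
SLC40A1 forward core: ggttggacgctTGCGCCCggggtgggcgac
SLC40A1 reverse core: gggacggcccgGCGCGCAaggttgacggga
CYBRD1 reverse core: cttaaccaagaGGGCGCAccactgccctac
TGCGCNC was present in 20% of all 35116 windows and TGCACNC in 12.1%, so a match is common. TFRC, whose leading probe set did not differ, also held TGCGCNC, 3 times with 2 matches overlapping. IREB2, which had no probe set, held TGCGCNC in reverse, 46 bases before a start. SLC11A2, with 4 windows, and HFE and ACO1, with 1 each, were lower and held neither form. The antioxidant response element core TGACNNNGC, present in 13.3% of windows, was in none of the 9 iron genes with a window. These are letter matches in RefSeq sequence, and no binding was measured.

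HEPH encodes hephaestin, the membrane ferroxidase that works with ferroportin. Probe set 203903_s_at gave log2 values of 8.497, 8.601 and 8.621 in medium, 8.71, 8.76 and 8.39 at 2.5 µg/mL, 8.21, 8.61 and 8.77 with ions and 8.32, 8.37 and 8.52 at 25 µg/mL. All groups overlapped, and the spread was largest in the ion group, with an SD of 0.29. The difference at 25 µg/mL was -0.17 ± 0.13 (SE; 95% interval -0.46 to 0.11; limma adjusted p = 0.41). A decrease as large as that of SLC40A1 lies outside this interval, although the 2 genes were not tested against each other.

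ACO1 encodes iron regulatory protein 1, which is a cytosolic aconitase when it holds an iron-sulfur cluster and binds iron-responsive elements when it does not. Probe set 207071_s_at gave log2 values of 9.53, 9.61 and 9.71 in medium, 9.52, 9.69 and 9.58 at 2.5 µg/mL, 9.49, 9.68 and 9.56 with ions and 9.05, 9.18 and 9.15 at 25 µg/mL. The arrays at 25 µg/mL lay below all others. The difference from medium was -0.49 ± 0.09 (SE; 95% interval -0.69 to -0.29; limma adjusted p = 0.00098). The dim probe set 237622_at, at 3.88 in medium, differed by -0.22 (limma adjusted p = 0.18).

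The lower dose and the ions gave a different picture. At 2.5 µg/mL 0 of 35 iron probe sets passed the test against medium, as did 0% of all probe sets, and limma's unadjusted p was under 0.05 for 1 of 35 iron probe sets and 4.33% of all. With ions 0 of 35 passed, against 0.00183% of all, and the unadjusted p was under 0.05 for 1 of 35 and 6.7% of all. For SLC40A1 the difference from medium was 0.07 at 2.5 µg/mL (95% interval -0.14 to 0.28) and -0.05 with ions (-0.26 to 0.16). For SLC11A2 it was 0.09 (-0.09 to 0.27) and 0.00 (-0.18 to 0.18). Neither set of intervals reaches the differences seen for these genes at 25 µg/mL. CYBRD1 had the largest leading difference at 2.5 µg/mL, 0.37 (95% interval 0.04 to 0.70; limma adjusted p = 0.999), and its second probe set differed by 0.38, both with overlapping arrays. The first was 0.57 without medium replicate 2 and 0.23 without medium replicate 3.

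**Figure D3:**
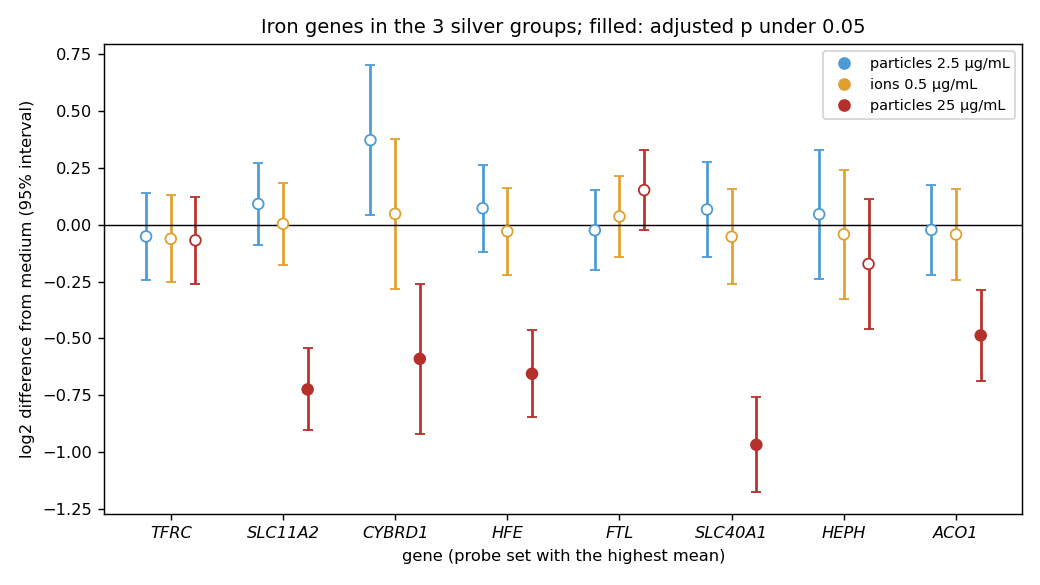
Log2 difference from medium (point, with 95% interval) of the probe set with the highest mean of each iron gene, for particles at 2.5 µg/mL, ions at 0.5 µg/mL and particles at 25 µg/mL, filled where the adjusted p was under 0.05. Only SLC11A2, CYBRD1, HFE, SLC40A1 and ACO1 at 25 µg/mL are filled, from -0.97 to -0.49, and all 3 comparisons share the medium arrays.

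Tested directly against the lower dose, 20 of 35 iron probe sets were lower at 25 µg/mL and 0 higher, beside 26% called among all, 13.9% lower and 12.1% higher. The 20 were 10 of HFE, 5 of SLC11A2, both of SLC40A1, both of CYBRD1 and 1 of ACO1. Among the 27306 probe sets above the median, tested alone, 13213 were called, 7584 lower and 5629 higher. In the leading probe sets SLC40A1 differed by -1.04 (limma adjusted p = 1.6e-06), CYBRD1 by -0.96 (limma adjusted p = 0.00022) and SLC11A2 by -0.82 (limma adjusted p = 3.9e-06). HFE differed by -0.73 and ACO1 by -0.46, both past the threshold. TFRC at -0.02, HEPH at -0.22 and FTL at 0.18 were not.

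Against the ion group, whose dose differs, 19 of 35 iron probe sets were lower at 25 µg/mL and 1 higher, beside 24.8% called among all, 12.1% lower and 12.7% higher. The higher iron probe set was the dim TFRC probe set 237215_s_at described above. Among the 27306 probe sets above the median, tested alone, 12658 were called, 6576 lower and 6082 higher. The leading differences were -0.92 for SLC40A1, -0.73 for SLC11A2, -0.64 for CYBRD1, -0.63 for HFE and -0.44 for ACO1, all past the threshold. Between 2.5 µg/mL and ions 0 of 35 passed, as did 0% of all, with limma's unadjusted p under 0.05 for 2 of 35 and 7.85% of all. A moderated F test over the 4 groups called 17 of 35 iron probe sets, 48.6%, beside 24.5% of all, dim ones included. These were not the same 17 as at 25 µg/mL against medium. TFRC 237215_s_at and SLC11A2 237106_at came in (F test adjusted p = 0.0029 and 0.048). TFRC 207332_s_at and HFE 210864_x_at dropped out (F test adjusted p = 0.17 and 0.052).

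The array controls moved with the 25 µg/mL group, and the sizes of the differences depend on what the arrays are set equal to. Taking the poly-A controls as the base moved the median of all probe sets at 25 µg/mL from 0.009 to -0.60, whereas the hybridization controls as a base moved it to -0.42. SLC40A1 then differed by -1.58 and -1.39, SLC11A2 by -1.34 and -1.15, HFE by -1.27 and -1.08, CYBRD1 by -1.20 and -1.02 and ACO1 by -1.10 and -0.91. TFRC became lower, at -0.68 (limma adjusted p = 0.013) and -0.49 (0.0081), and so did HEPH, at -0.79 (limma adjusted p = 0.0047) and -0.60 (0.0017). FTL turned from 0.15 to -0.46 (limma adjusted p = 0.075) and -0.27 (0.13), without passing. Relative to the median of all probe sets, SLC40A1 stood at -0.98, TFRC at -0.08 and FTL at 0.14 both as deposited and under each control scaling. This sameness is fixed by construction, because a control scaling subtracts 1 value per array from every probe set. Whether the controls or the bulk of the probe sets are the better base was not tested.

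**Figure D4:**
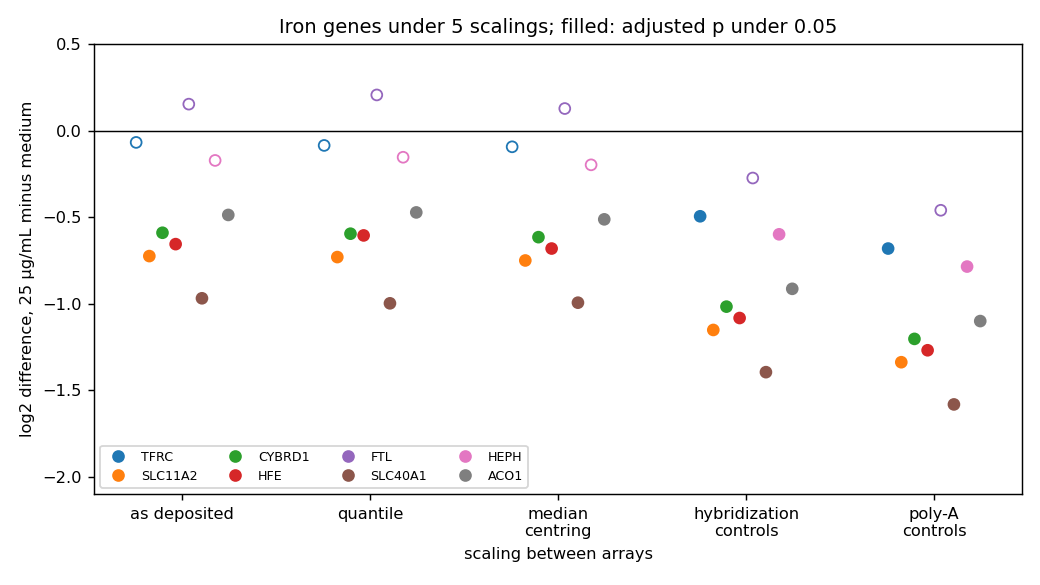
Log2 difference between 25 µg/mL particles and medium for the probe set with the highest mean of each iron gene under 5 scalings of the arrays, filled where the adjusted p was under 0.05. SLC40A1, SLC11A2, HFE, CYBRD1 and ACO1 are filled and below 0 under all 5, TFRC and HEPH are filled under the control scalings, and FTL crosses from 0.15 to -0.46 under poly-A scaling without being filled.

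The wider iron system was read through 84 genes in 7 lists. At 25 µg/mL 23 of them were lower (27.4%) and 14 higher (16.7%), beside 17.9% and 12.8% of all genes. In all 44% were called, beside 30.7% of all genes, and the median was -0.09. Dim probe sets were called less often, and the shares of all genes, here and for each list below, are not matched for brightness. Of the 27306 probe sets above the median, tested alone, 13182 were called. With median centring 23 were lower (27.4%) and 10 higher (11.9%), beside 19% and 11.4% of all genes. The higher genes then went from 5 to 3 in the iron entry list and from 3 to 1 in the oxygen-sensing list. Under poly-A scaling 56 were lower and MCOLN1 was the 1 higher gene, and under hybridization scaling 55 were lower and MCOLN1, ISCA1 and EGLN3 higher. These are 66.7% and 65.5% lower, near the 68.5% and 62.1% of all genes under the same scalings. At 2.5 µg/mL and with ions 0 of the 84 passed, as did 0% of all genes, with limma's unadjusted p under 0.05 for 3.83% and 5.46% of all genes.

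Of 19 genes for iron entry and the transferrin cycle, 6 were lower (31.6%) and 5 higher (26.3%), beside 17.9% and 12.8% of all genes. The list median of 0.005 turned to -0.61 and -0.42 under poly-A and hybridization scaling. MCOLN1, a channel that lets iron and calcium out of lysosomes, read 5.50, 5.85 and 5.71 in medium and 6.70, 7.03 and 6.72 at 25 µg/mL, and rose by 1.13 (limma adjusted p = 2.9e-05). STEAP2, a metalloreductase, fell by 1.04 (limma adjusted p = 1.4e-06). SLC39A8, a metal importer, fell by 0.70, and LRP1, a receptor that takes up haem bound to hemopexin, by 0.72. TF, the transferrin gene, differed by -0.25 (limma adjusted p = 0.14). TFR2, the second transferrin receptor, differed by 0.38 (limma adjusted p = 0.05005) with all 3 arrays above medium, and by -0.24 and -0.05 under the control scalings.

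Of 15 genes for iron handling in the cytosol, 5 were lower (33.3%) and 3 higher (20%), beside 17.9% and 12.8% of all genes. The list median was -0.20. FBXL5, the iron-sensing part of the ligase that removes iron regulatory protein 2, fell by 0.40 (limma adjusted p = 0.0057), and CIAO2B, of the cytosolic iron-sulfur assembly, fell by 0.61. GLRX3, a cytosolic glutaredoxin, was higher by 0.56 and NUBP1, an iron-sulfur scaffold, by 0.44 as deposited, with -0.05 and -0.17 under poly-A scaling. NCOA4, the receptor that delivers ferritin for breakdown, differed by -0.15 (limma adjusted p = 0.21).

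Of 18 genes for hepcidin and its BMP control, 6 were lower (33.3%) and 0 higher, beside 17.9% and 12.8% of all genes. In either direction 30.7% of all genes were called, near the 33.3% here. The list median was -0.19. SMAD5 read 10.95, 10.90 and 10.96 in medium and 9.76, 9.82 and 9.82 at 25 µg/mL, and fell by 1.13 (limma adjusted p = 2.4e-07). SMAD1 fell by 0.83 and SMAD4 by 0.71, and all 3 encode carriers of the BMP signal to the nucleus. HAMP, the hepcidin gene, was dim, at 3.90, 4.08 and 3.79 in medium and 3.85, 4.06 and 3.86 at 25 µg/mL, and the groups overlapped. The BMP genes serve many other processes, so their list is not particular to iron.

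Of 15 genes for mitochondrial iron and iron-sulfur clusters, 4 were lower (26.7%) and 2 higher (13.3%), beside 17.9% and 12.8% of all genes. The list median was -0.09. SLC25A37, the mitochondrial iron importer mitoferrin-1, read 8.70, 8.68 and 8.83 in medium and 7.82, 7.94 and 7.62 at 25 µg/mL, and fell by 0.95 (limma adjusted p = 3.1e-05). NFU1, which passes clusters to target proteins, fell by 0.90. ISCA1, another assembly factor, was higher by 0.80 and the co-chaperone gene HSCB by 0.54 as deposited, with 0.19 and -0.07 under poly-A scaling.

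Of 8 oxygen-sensing genes, 2 were lower (25%) and 3 higher (37.5%), beside 17.9% and 12.8% of all genes. The list median of 0.11 turned to -0.51 and -0.32 under the control scalings. ARNT, the partner that HIF proteins need to bind DNA, read 7.57, 7.45 and 7.63 in medium and 6.09, 6.05 and 6.12 at 25 µg/mL, and fell by 1.46 (limma adjusted p = 4.4e-08). EPAS1, which encodes HIF-2α and is known to drive SLC11A2 and CYBRD1 in the gut, read 11.10, 11.21 and 11.14 in medium and 10.97, 10.93 and 10.65 at 25 µg/mL, and fell by 0.30 (limma adjusted p = 0.042). EGLN3, a prolyl hydroxylase that marks HIF proteins for removal, was higher by 1.01 as deposited (limma adjusted p = 4.8e-06) and by 0.40 under poly-A scaling (limma adjusted p = 0.12). VHL, of the ligase that removes them, was higher by 0.32 (limma adjusted p = 0.045), and differed by -0.29 and -0.11 under the control scalings. With median centring VHL missed the threshold (limma adjusted p = 0.057).

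Of 6 other mRNAs with an iron-responsive element, EPAS1 was the 1 called gene (16.7% lower, beside 17.9% of all genes), and the median was -0.08. Of 4 ferroxidases and export partners, 1 was higher (25%) and 0 lower, beside 12.8% and 17.9% of all genes. The called gene was ABCG2, a haem and drug exporter. It was higher by 0.74 as deposited (limma adjusted p = 0.00045) and by 0.13 under poly-A scaling (limma adjusted p = 0.62). CP, the serum ferroxidase ceruloplasmin, differed by -0.27 (limma adjusted p = 0.20).

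**Figure D5:**
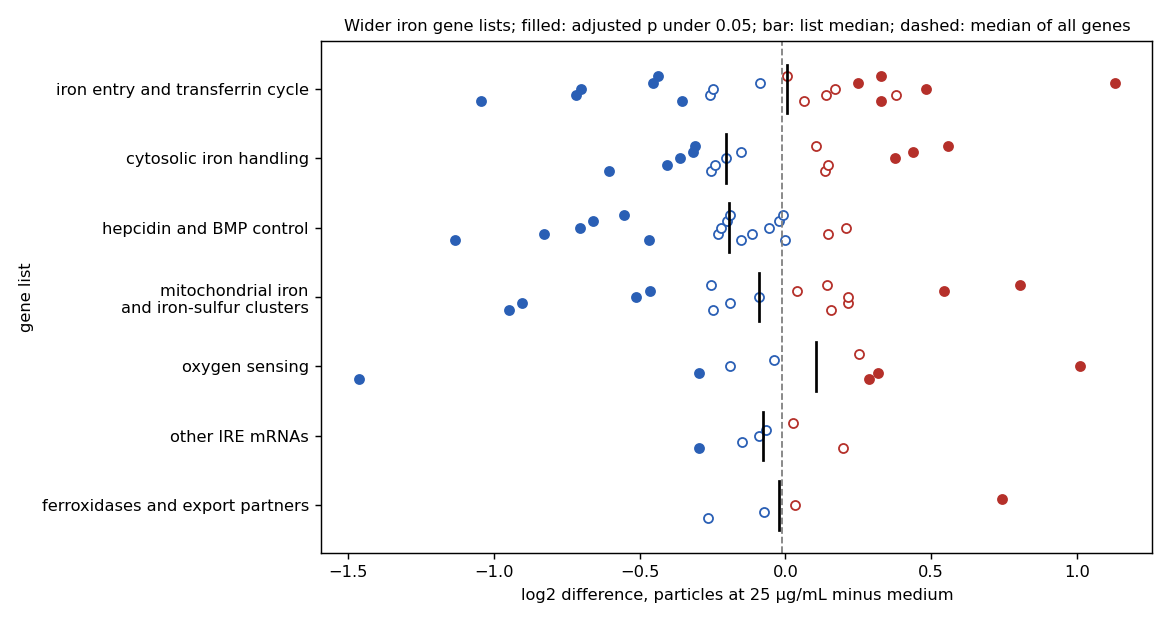
Log2 difference between 25 µg/mL particles and medium for the genes of 7 wider iron lists (points, filled where the adjusted p was under 0.05), with list medians (bars) and the median of all genes (dashed line), on the deposited scale. Filled points lie on both sides of 0 in 4 lists and on the lower side alone in the hepcidin and BMP list (6) and the list of other mRNAs with an iron-responsive element (1), and under poly-A scaling the median of every list lies below 0. Of all genes 17.9% were lower and 12.8% higher.

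Markers of cell types moved in the same comparison. Of the 13 enterocyte markers 5 were lower at 25 µg/mL and 0 higher, beside 17.9% lower and 12.8% higher among all genes. ALPI fell by 1.38, VIL1 fell by 0.50, CDX2 fell by 0.44, CDH1 fell by 0.43 and CDHR5 fell by 0.42. The mean over all 13 was 6.74 to 6.83 on the medium arrays and 6.498 to 6.546 at 25 µg/mL. Of 6 hepatocyte-type markers 4 were lower, with array means of 9.03 to 9.62 in medium and 8.35 to 8.57 at 25 µg/mL. Of 6 fibroblast markers COL3A1 and LUM were lower, with means of 5.73 to 5.84 in medium and 5.32 to 5.39. Of 6 leukocyte markers CD14, CD163 and LYZ were lower, with means of 5.51 to 5.74 in medium and 5.003 to 5.209, and none of 4 erythroid markers passed. The part of these shifts in the iron gene differences was not tested.

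Over the 12 arrays, the genes whose pattern was most like that of SLC40A1 were DNMBP (Pearson's r = 0.995), CHP1 (0.994) and MCEE (0.993). In all, 783 of 19774 genes had an r above 0.95 with it, so the pattern was widely shared. For TFRC the nearest were ADCY5 (0.913), OR9A1P (0.907) and MGC12916 (0.869), and 0 genes passed 0.95. The arrays share their groups, so these values only describe likeness.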

How the data were processed

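Total RNA of 12 samples was hybridised to 1 array each. The cRNA input was 250 ng of RNA, as the labels' protocols state. The authors deposited log2 expression values per probe set. Per the submitters' processing notes they used Partek and RMA, and no version is given in the sources used here. Judged by the deposited values, the scale is log2, array means were equal at 5.57 and medians were 4.72 to 4.79, so a change in total mRNA per cell does not show. There are no detection calls. Gene symbols came from the platform annotation, updated through gene IDs: 41091 probe sets had 1 symbol, 1801 several and 11721 none listed, and 62 controls were left out.

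Each of 54613 probe sets was fitted with limma 3.58.1 in R 4.3.3, in 1 model of 4 groups (8 residual and 7.37 prior degrees of freedom) with 6 two-sided contrasts, Benjamini-Hochberg adjustment per contrast and a threshold of 0.05. The fit was tested on simulated data. A gene's leading probe set is the 1-symbol probe set that was brightest on average across all arrays. Named genes were all iron genes, up to 4 called genes with the largest differences of each list, and CP, TF, HAMP, TFR2, B2M and NCOA4. The members, lists and rules were chosen with earlier results of these data known. Alternatives (25 settings) covered scaling, filters, models, thresholds, probe set summaries and leaving out each array. Start site windows came from RefSeq (GRCh38.p14), with 9 of 10 genes matched. Figures were drawn with matplotlib 3.10.9.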

Additional observations from a re-analysis of the deposited data

Results flagged for a closer look

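The array control probe sets, which are left out of the gene tests and serve only as the base of the control scalings, differed between groups. The 24 poly-A control probe sets had array means of 5.31 to 5.54 in medium and 5.56 to 6.31 at 25 µg/mL, a difference of 0.61 in mean log2 value. The 18 hybridization control probe sets had array means of 10.43 to 10.66 in medium and 10.89 to 11.08 at 25 µg/mL, a difference of 0.43. In both, all 3 arrays at 25 µg/mL lay above all 3 medium arrays.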

How the results depend on the processing

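The count of iron probe sets called at 25 µg/mL against medium, 17 of 35, was 12 to 18 when 1 array was left out, 34 with poly-A and 34 with hybridization scaling, and 11 where a change of at least 1.5-fold was required. With 1 value per gene it was 5 of 8 genes by the leading probe set and 4 of 8 by the average of each gene's probe sets. Against 2.5 µg/mL the count of 20 was 15 to 20 with 1 array left out, 35 under poly-A scaling, 9 at 1.5-fold or more, and 5 of 8 genes by either summary. Against ions the count of 20 was 16 to 21 with 1 array left out, 34 with poly-A and 32 with hybridization scaling, 9 at 1.5-fold or more, and 5 of 8 genes by either summary. The comparisons of 2.5 µg/mL and of ions with medium, and with each other, gave 0 iron probe sets in each of the 25 settings. No called iron probe set changed sign in any setting. CYBRD1 222453_at also missed the threshold with an unmoderated fit (adjusted p = 0.055). SLC40A1 233123_at missed it with the unmoderated fit (adjusted p = 0.12) and with a fit of only the 2 groups (adjusted p = 0.059). HFE 210864_x_at (adjusted p = 0.051) and TFRC 207332_s_at (adjusted p = 0.080) missed it with a fit of only the 2 groups. FTL 212788_x_at, not called as deposited, was called higher with an intensity trend (adjusted p = 0.0039) and with the unmoderated fit (adjusted p = 0.026). Under these same fits 2 and 2 iron probe sets were higher against 2.5 µg/mL, and 3 and 2 against ions. Over all probe sets, 14162 were called at 25 µg/mL against medium, 36645 under poly-A scaling, 33675 under hybridization scaling and 6089 at 1.5-fold or more, and the lower share went from 7324 of 14162 to 36144 of 36645. Against 2.5 µg/mL the 14181 became 45922, 21786 and 6046, and against ions the 13533 became 47213, 36917 and 5627, or 8945 at an adjusted p under 0.01. By gene the 3 comparisons gave 6607, 6717 and 6378 calls of 19775 with leading probe sets and 6235, 6416 and 6081 with mean values. At 2.5 µg/mL the 0 became 10 with hybridization scaling and 11 with an intensity trend, and with ions the 1 became 0 to 4. No paired analysis was possible because the labels mark arrays with letters and give no replicate numbers that groups share. The control scalings rest on few probe sets, and dim probe sets have no stated background.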
